A study of Mus musculus with 39 samples.

Results

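The comparison described here is of non-tumour intestinal tissue from Apc Min/+ mice that are homozygous for the ADAM17 ex allele (written ex/ex) against the same tissue from Apc Min/+ mice with wild-type Adam17. Its members are the libraries whose tissue label reads surrounding non-tumour tissue and that held over 1000000 gene counts. These were 9 of the 39 libraries of the series, 6 ex/ex (replicates 1 to 6) and 3 wild type (replicates 2, 3 and 4). Wild-type replicate 1 held 438639 gene counts, of which 1 was from Adam17, and was left out. All mice were C57BL/6 and all carried Apc Min/+, a truncating mutation of 1 Apc copy that makes intestinal adenomas arise, so that the controls too are tumour-prone animals and not healthy mice. Age, sex, the animal and the position along the intestine are not in the labels. The ex allele is known as a hypomorphic allele that leaves a small amount of ADAM17 in every cell type, so neither the epithelium nor any other compartment was targeted alone. The other 29 libraries of over 1000000 counts were tumours, 12 wild type and 17 ex/ex, and are used only to place these results.

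ADAM17 is a membrane protease that cuts the outer part of many surface proteins free. In the intestine it is known for releasing ligands of the EGF receptor such as amphiregulin and TGF-alpha, which drive ERK signalling in epithelial cells, and for releasing TNF. It also sheds the IL-6 receptor, and the soluble receptor lets IL-6 act on cells that lack it through gp130 and STAT3, which is called trans-signalling. The series title names both routes.

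The 9 libraries held 5668185 to 11112321 gene counts over 20893 to 22465 detected genes, and mitochondrial genes took 2.60 to 3.78% of the counts. Levels are given as counts scaled to a common library total of 1000000 (CPM). Fold changes are ex/ex over wild type on the log2 scale. Adjusted p-values come from edgeR's quasi-likelihood test over all genes, with a threshold of 0.05. The value after ± is an approximate standard error, worked back as the size of the fold change over the square root of that test's F statistic. The epithelial genes Vil1, Epcam and Cdh1 were present in every library, with Vil1 at 1578 to 3070 CPM. The libraries did not all look like the same tissue. Wild-type replicate 4 stood apart by red blood cell and vessel genes: haemoglobin Hbb-bs was at 682 CPM against 36.0 and 33.3 in wild-type replicates 2 and 3 and 5.35 to 16.7 in ex/ex, and the summed level of the 15 endothelial markers was 2192 CPM against 209.7 to 237.5 and 303.2 to 401.7. Its Paneth cell list summed to 827 CPM, against 8925 and 12681 in the other wild-type libraries. Ex/ex replicates 3 and 4 were high for the duodenal genes Pdx1 and Akp3. Pdx1 was at 103 and 100 CPM against at most 6.35 in the other 7, and Akp3 at 6730 and 9650 against at most 62.3. The summed duodenal and jejunal list did not set them apart, at 30655 and 30116 CPM. It was at 28135 to 30365 in wild type and 42902 and 44147 in ex/ex replicates 1 and 2. The mean log2 CPM of its tested members set them apart, at 9.33 and 9.21 against 5.77 to 7.83 in the other 7. Both are called duodenal below. Replicate 4 also carried gastric or Brunner gland genes (Tff2 at 35202 CPM). Ex/ex replicate 6 was highest for the ileal gene Fabp6, at 102 CPM against 1.41 to 5.68. Replicates 1 and 2 of ex/ex look male by Xist and Ddx3y and the other 7 female, and this pair was also by far the closest in the group, with a chi-square per degree of freedom of 2.01 over genes against 17.8 to 152 for the other ex/ex pairs. The part that these differences play in the results was not tested beyond refits without the libraries named. The labels do not say whether ex/ex replicates 1 and 2 come from the same animal; they are counted as 2 samples here, and a refit with their counts summed is given with the counts of called genes.

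**Figure D1:**
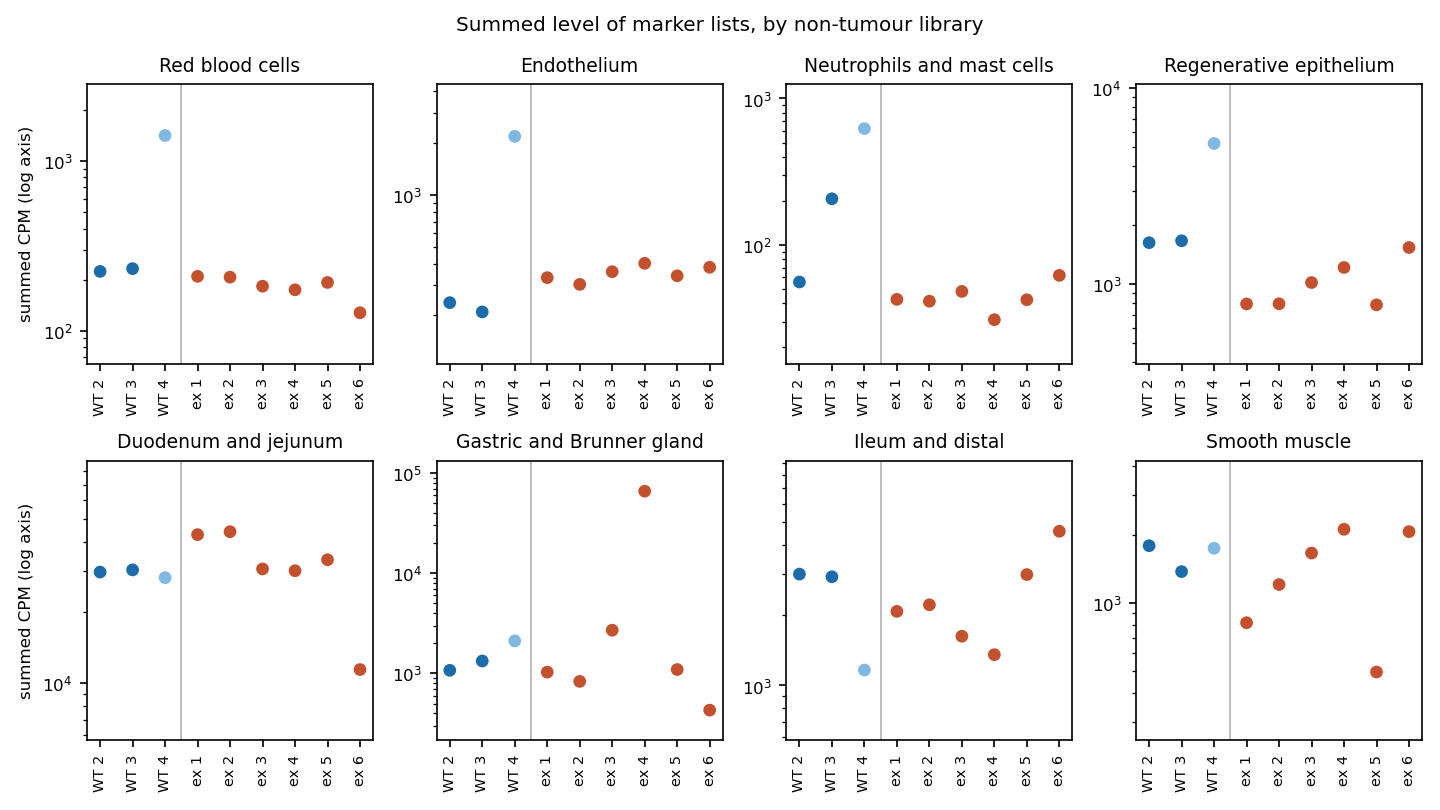
Summed CPM of 8 marker lists (vertical, log axes with their own range) in each of the 9 non-tumour libraries (horizontal; WT is wild type, ex is ex/ex). Wild-type replicate 4 (pale) is highest for red blood cell, endothelial, mast cell and regenerative genes, and ex/ex replicate 4 is highest for gastric and Brunner gland genes.

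Of 14515 genes tested over the 9 libraries, 74 differed between the genotypes (0.51%): 19 were higher in ex/ex (0.131%) and 55 lower (0.379%). Without wild-type replicate 4, 61 of 14935 genes differed (0.408%), 15 higher (0.1%) and 46 lower (0.308%). The 2 fits shared 46 calls, 37 lower and 9 higher, all in the same direction, while 28 were called only with that library and 15 only without it. Unadjusted p-values under 0.05 were found for 1382 genes (9.52%) with it and 1123 (7.52%) without it. The median log2 fold change over all tested genes was -0.01 with it and 0.04 without it.

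All 55 lower genes had their 3 wild-type values above all 6 ex/ex values, where 2.67% of all tested genes did. Wild-type replicate 4 held the highest wild-type value in 47 of them and was over 2 times each other wild-type library in 37. The 55 were called on these same libraries, so their lack of overlap is no separate support. The calls were not equally stable. In refits that each left out 1 of the 9 libraries, 7 to 27 genes were higher and 21 to 66 lower, and 19 of the 55 lower and 6 of the 19 higher genes stayed called in every one. The lower count moved by over 1.5 times without ex/ex replicate 1 (21 genes), 2 (22), 3 (31), 4 (34) or 5 (23). The higher count moved by over 1.5 times without ex/ex replicate 1 (7), 2 (8) or 5 (9), wild-type replicate 2 (9) or wild-type replicate 3 (9). Leaving out both male-looking libraries gave 3 higher and 6 lower genes, and leaving out the duodenal ex/ex replicates 3 and 4 gave 10 and 12. Summing the close pair, ex/ex replicates 1 and 2, to 1 sample gave 7 higher and 23 lower genes. Without wild-type replicate 4, leaving out replicate 3 as well set 1 wild-type library against 6 and gave 1 higher and 0 lower genes. In the 9 refits without 1 library and under each of the 7 or 8 other settings in which the gene was fitted, 4 lower genes (Adam17, Socs3, Prss41 and Hmga1b) and 2 higher genes (Tmem252 and Gm6472) were called each time.

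**Figure D2:**
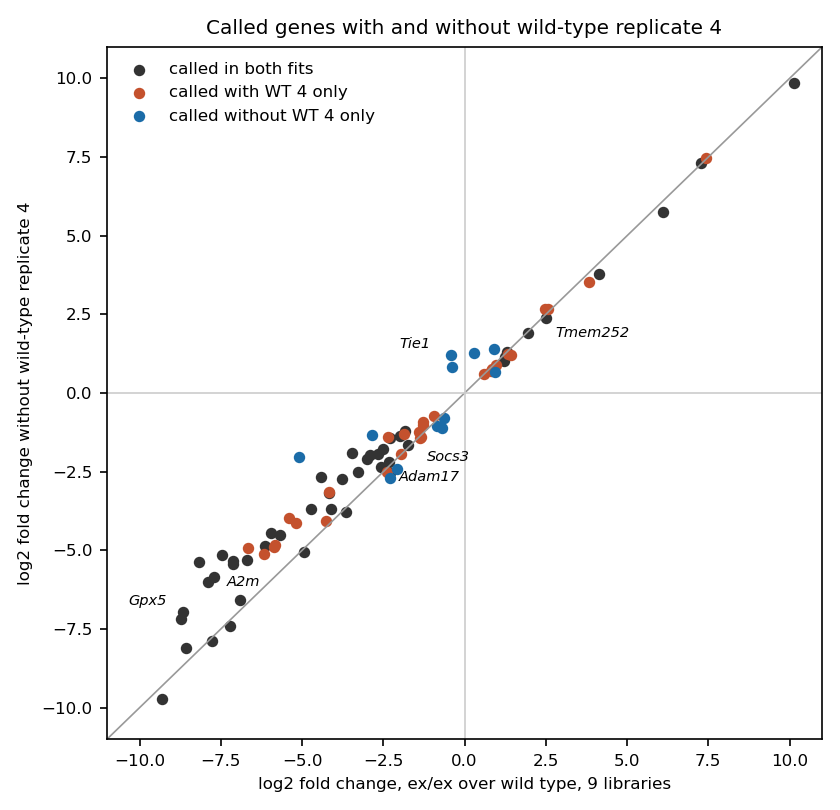
Log2 fold change of ex/ex over wild type with all 9 libraries (horizontal) and without wild-type replicate 4 (vertical) for each gene called in either fit and tested in both; the diagonal marks equal values. Most lower genes sit above the diagonal, such as Gpx5 at -8.65 and -6.95. The genes called higher over the 9 libraries lie close to it, such as Tmem252 at 2.51 and 2.40. Tie1, called only without replicate 4, lies far from it at -0.41 and 1.22.

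Adam17 itself, on chromosome 12 (GRCm38 chr12:21323509-21373632, minus strand), was at 43.2, 42.5 and 66.9 CPM in wild-type replicates 2, 3 and 4. In ex/ex replicates 1 to 6 it was at 8.60, 8.80, 9.67, 8.83, 12.2 and 11.3 CPM. Every ex/ex library was thus far below every wild-type library, which fits the labels. It fell by 2.31 ± 0.16 on the log2 scale, to 20.2% of wild type (edgeR adjusted p = 0.000387), and to 21.9% without wild-type replicate 4 (adjusted p = 0.00201). The adjusted p stayed between 0.000258 and 0.00395 when each library was left out in turn.

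Genes that work with ADAM17 did not follow it. Of the 14 tested genes of its list, Adam17 was the only one called, with and without wild-type replicate 4; the list median was -0.38 with that library and -0.02 without it. Rhbdf2, the iRhom that carries ADAM17 to the surface of immune cells, was at 19.8 to 32.5 CPM in wild type and 20.2 to 27.0 in ex/ex (log2 fold change -0.04 ± 0.14, adjusted p = 0.95). Its relative Rhbdf1 overlapped as well, at 7.07 to 21.2 against 6.25 to 17.7 CPM. Adam10, the closest relative of ADAM17 among the sheddases, was at 138 to 219 CPM in wild type and 94.6 to 159 in ex/ex (-0.49 ± 0.17, adjusted p = 0.38). None of 19 tested genes for other surface proteins that ADAM17 or its relatives are known to shed was called, in either direction (median -0.24, and 0.01 over 20 tested without wild-type replicate 4). Iah1, a hydrolase gene on the opposite strand whose end overlaps that of Adam17, was called only without that library (log2 fold change -0.80 ± 0.13, adjusted p = 0.0494). How reads in the overlap were counted is not known, since no source used here states the strand setting of the counting.

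The EGF receptor system itself held no called gene. Of its 13 tested members 0 passed with or without wild-type replicate 4. Over the 9 libraries 5 had an unadjusted p under 0.05, where 9.52% of all tested genes did. The list median was -0.26 with wild-type replicate 4 and 0.09 without it. The receptor Egfr was at 35.3, 36.2 and 58.4 CPM in wild type and 23.8 to 35.7 in ex/ex (-0.46 ± 0.17, adjusted p = 0.42). The ligand Areg, which ADAM17 sheds, was at 4.32, 5.24 and 21.3 CPM in wild type and 2.78 to 13.4 in ex/ex (-0.35 ± 0.57, adjusted p = 0.88). For Areg, Ereg, Btc and Nrg1 the high wild-type value was replicate 4 alone. Erbb2, a co-receptor without a ligand of its own, had all 6 ex/ex values (159 to 199 CPM) above the 3 wild-type values (126 to 135 CPM), which 2.68% of all tested genes did, but did not pass the test (0.48 ± 0.13, adjusted p = 0.21).

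Of 18 tested genes that respond to ERK 1 fell and 0 rose, where 0.379% of all tested genes fell, and the list median was -0.66. Without overlap, 4 lay below wild type, where 2.67% of all tested genes did. Without that library none was called and the median was -0.26. The member that fell was Phlda1, an ERK-induced feedback gene that also marks crypt progenitors. It was at 15.1, 17.4 and 50.6 CPM in wild type and 4.8, 5.39, 8.01, 9.50, 6.30 and 8.77 CPM in ex/ex, so the groups did not overlap. Its log2 fold change was -1.87 ± 0.32 (adjusted p = 0.0377), and -1.29 with an adjusted p of 0.0597 without wild-type replicate 4. Its call also ended without any 1 of the 6 ex/ex libraries or of wild-type replicate 3, with an adjusted p of up to 0.116. The ETS factor Etv4 was at 1.71, 2.20 and 14.5 CPM in wild type against 0.112 to 1.34 in ex/ex, and Dusp4, an ERK phosphatase, at 4.77, 4.69 and 19.6 against 1.79 to 3.35. Neither passed (adjusted p = 0.14 and 0.139).

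Socs3, which STAT3 induces and which then blocks gp130 signalling, was the member of the IL-6 and STAT3 list called in the 9-library fit. It was also called in all refits of that fit. It stood at 30.5, 30.1 and 45.5 CPM in wild type. In ex/ex replicates 1 to 6 it was at 9.27, 11.9, 9.52, 8.97, 10.3 and 11 CPM. The ex/ex values lay within a narrow range, and the lowest wild-type library was well above all of them. Socs3 fell by 1.75 ± 0.14 on the log2 scale to 29.7% of wild type (edgeR adjusted p = 0.000789). Without wild-type replicate 4 it fell to 31.9% (log2 -1.65 ± 0.15, adjusted p = 0.00353), and over the 9 refits without 1 library each the adjusted p was 0.00251 to 0.00817.

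The other members of the pathway showed no such separation. Of 16 tested members 1 fell and 0 rose (median -0.31), where 0.379% of all tested genes fell. Without wild-type replicate 4, 2 fell (median -0.16), where 0.308% of all tested genes did. Il6st, which encodes the shared receptor gp130, was at 52.5 to 148 CPM in wild type and 55.9 to 82.0 in ex/ex (-0.36 ± 0.24, adjusted p = 0.68). Il6ra overlapped too, at 7.44 to 25.4 against 6.15 to 18.6 CPM. Stat3 was at 160, 145 and 210 CPM in wild type and 123 to 154 in ex/ex (-0.31 ± 0.10, adjusted p = 0.355). Il6 itself was at 0.353 CPM or less in all 9 libraries and was not tested.

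Reg3g, an antibacterial lectin of the epithelium that is known to respond to STAT3, was the second member called without wild-type replicate 4. It was at 643, 1216 and 284 CPM in wild type and 94.3, 109, 106, 126, 187 and 301 CPM in ex/ex. Here replicate 4 was the lowest wild-type library and lay below ex/ex replicate 6. Reg3g was not called with it (-2.28 ± 0.49, adjusted p = 0.109) and was called without it (-2.70 ± 0.41, adjusted p = 0.0345). Its neighbour Reg3b went the same way, at 3155, 6469 and 722 against 217 to 1242 CPM, without passing in either fit (-2.77 with an adjusted p of 0.23, and -3.27 with 0.122). None of the 12 tested genes of the TNF and NF-kB list was called in either fit (median -0.16 and 0.03). Tnf was too low to test.

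**Figure D3:**
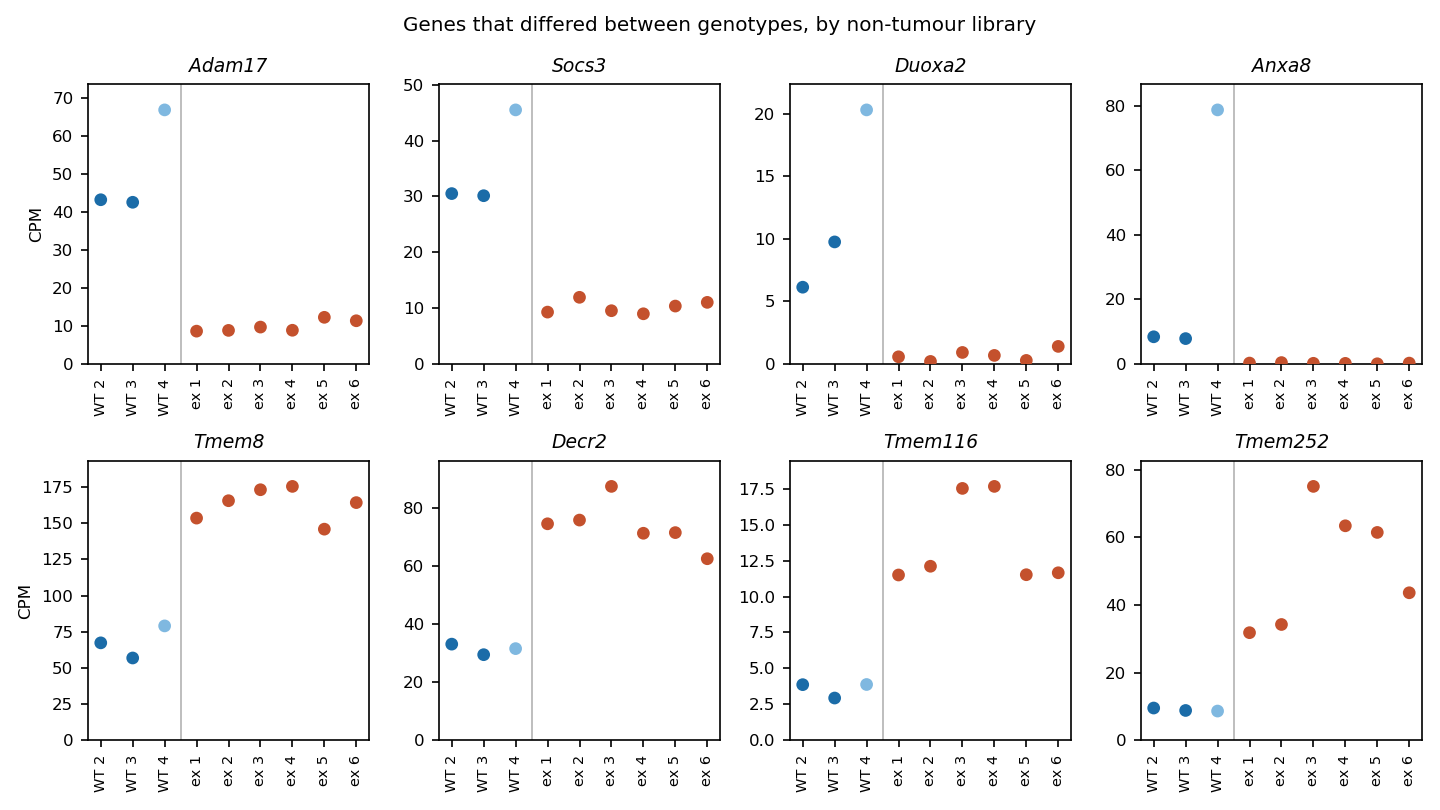
CPM (vertical, from 0) of 8 genes in each of the 9 non-tumour libraries (horizontal; WT is wild type with replicate 4 pale, ex is ex/ex). Adam17, Socs3, Duoxa2 and Anxa8 are lower in all 6 ex/ex libraries, and Tmem8, Decr2, Tmem116 and Tmem252 are higher in all 6.

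Promoter sequence is shown for 3 of the lower genes because each holds letters that match a loose pattern for STAT or AP-1 sites. Factors downstream of gp130 and of ERK are known to bind STAT and AP-1 sites. Each line gives the 250 bases before the RefSeq start of the gene (GRCm38.p6), with matches in capitals. Socs3 (chr11:117969367-117969616, minus strand) is given with TTCNNNGAA as the STAT letters. Duoxa2 (chr2:122298650-122298899, plus strand) and Sprr1a (chr3:92485882-92486131, minus strand) are given with TGANTCA as the AP-1 letters. N stands for any base, so the AP-1 pattern is looser than the consensus, which has G or C in the middle. The Duoxa2 match has A there and the Sprr1a matches have G. In the GENCODE M21 annotation Socs3 spans 117966079 to 117970047. By that annotation the Socs3 stretch lies inside the gene and not before it.
Socs3: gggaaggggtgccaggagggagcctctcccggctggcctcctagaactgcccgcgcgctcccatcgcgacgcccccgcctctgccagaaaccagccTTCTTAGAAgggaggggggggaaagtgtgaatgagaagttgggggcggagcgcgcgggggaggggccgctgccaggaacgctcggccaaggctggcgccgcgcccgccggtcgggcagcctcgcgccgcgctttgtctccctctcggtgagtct
Duoxa2: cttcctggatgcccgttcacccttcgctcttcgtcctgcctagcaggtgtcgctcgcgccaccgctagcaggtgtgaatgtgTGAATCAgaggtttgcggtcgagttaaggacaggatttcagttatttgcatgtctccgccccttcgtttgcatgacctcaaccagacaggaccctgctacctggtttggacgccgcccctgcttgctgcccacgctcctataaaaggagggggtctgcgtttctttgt
Sprr1a: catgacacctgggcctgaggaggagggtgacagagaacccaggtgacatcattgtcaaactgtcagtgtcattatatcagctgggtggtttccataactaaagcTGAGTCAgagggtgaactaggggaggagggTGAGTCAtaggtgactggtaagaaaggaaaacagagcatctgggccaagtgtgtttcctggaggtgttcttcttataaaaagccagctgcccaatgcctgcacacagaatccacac
In windows of 300 bases, from 250 before to 50 after the start and read on both strands, 37 of the 55 lower genes had an entry. AP-1 letters, with any middle base, were found in 7 of these 37 genes (18.9%) and in 8.97% of all 27025 genes with an entry. STAT letters were found in 4 of the 37 (10.8%) and in 9.55% of all genes. Of 10 higher genes with an entry 0 held either. A match is a description of the letters, not a bound site.

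The regenerative epithelium list, of genes known from injured and fetal-like epithelium, had 13 tested members. Of these 3 fell (Msln, S100a6 and Krt7), where 0.379% of all tested genes fell, and 0 rose, with a median of -1.91. Without wild-type replicate 4 the 2 called were S100a6 and Anxa1, both lower, where 0.308% of all tested genes were. The median was then -0.70 and 5 of the 13 were positive. S100a6, a calcium-binding protein of dividing and stressed cells, was at 160, 165 and 700 CPM in wild type and 46.2 to 102 in ex/ex (-2.29 ± 0.39, adjusted p = 0.0377; -1.42 and 0.0408 without that library), and its call ended without any 1 of ex/ex replicates 1 to 5, with an adjusted p of up to 0.118. Msln, mesothelin, was at 3.06, 1.75 and 13.1 CPM against at most 0.335 in ex/ex (-5.19 ± 0.78, adjusted p = 0.0228). It was not called without wild-type replicate 4 (adjusted p = 0.052) or without ex/ex replicate 1, 2, 3 or 5 (up to 0.0737). Msln is also a member of the adipocyte and mesothelium list, which summed to 121, 118 and 376 CPM in wild type and 73.3 to 175 in ex/ex. The part of mesothelium in the pieces was not tested. Krt7, a keratin of simple ducts that is scarce in healthy small intestine, was at 124, 135 and 622 CPM against 38.3 to 86.8 in ex/ex (-2.35 ± 0.42, adjusted p = 0.0479). Its adjusted p was 0.0577 without wild-type replicate 4 and up to 0.142 without ex/ex replicate 3, and 4 other ex/ex libraries each ended the call too. The summed level of the list was 1632, 1669 and 5237 CPM in wild type and 786 to 1542 CPM in ex/ex. Clu, the gene that marks revival stem cells, was at 200.4, 164 and 1665 CPM in wild type and at 10.9 to 18 in ex/ex replicates 1, 2, 3, 5 and 6, but at 625 in ex/ex replicate 4. It was not called (adjusted p = 0.635).

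Of genes with roles in adhesion and cell spreading, 4 of those that fell are given here, chosen after their values were seen. Lamb3, a chain of a basement membrane laminin, was at 58.6, 48.1 and 121 CPM in wild type and 23.0 to 36.7 in ex/ex, and fell by 1.29 ± 0.22 on the log2 scale (adjusted p = 0.0447). Itgb6, an epithelial integrin chain that is induced in wounds, fell by 1.26 ± 0.19 (adjusted p = 0.0233). Tns4, a focal adhesion protein known to be induced by EGF receptor signalling, fell by 1.34 ± 0.21 (adjusted p = 0.0289), and Plek2, a regulator of cell spreading, by 1.39 ± 0.19 (adjusted p = 0.0179). These 4 were not called without wild-type replicate 4, where their log2 fold changes were -0.93, -1.03, -1.41 and -1.22. For Plek2 no other library ended the call, while Lamb3 was called only in the refit without wild-type replicate 3, Tns4 only without ex/ex replicate 3 or 6, and Itgb6 in 5 of the 9 refits.

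The next 6 genes, known from squamous or keratinising epithelium, were lower in ex/ex. They were not a list. Krt14, Anxa8, Dsc3 and Sprr1a were named for being among the 15 smallest fold changes called in both fits. Sprr2a3 and Serpinb5 were chosen after their values were seen. All 6 were thus picked for being lower, so their number is no separate support. Krt14, a basal keratin of skin, was at 5.4, 3.4 and 37.8 CPM in wild type, and 1 count was found in the 6 ex/ex libraries together against 311 in wild type (edgeR adjusted p = 0.00526). Leaving out ex/ex replicate 2, the library with that count, raised its adjusted p to 0.191. Anxa8, an annexin of stratified epithelium, was at 8.37, 7.81 and 78.7 CPM against at most 0.378 in ex/ex (-7.13 ± 0.83, adjusted p = 0.00735). Dsc3, a desmosomal cadherin, was at 2.79, 6.16 and 30.7 CPM against at most 0.604 (-6.15 ± 0.87, adjusted p = 0.0179). Sprr1a, a cornified envelope protein that injured gut also makes, was at 6.03, 3.03 and 44.8 against 0.302 to 0.900 CPM (-4.40 ± 0.70, adjusted p = 0.0289). Its relative Sprr2a3 was at 54.7, 82.6 and 256.5 against 15.5 to 24.1 CPM (-2.66 ± 0.35, adjusted p = 0.0125). Serpinb5, or maspin, was at 18.1, 18.4 and 83.6 against 2.34 to 7.06 CPM (-3.01 ± 0.45, adjusted p = 0.023). All 6 were also called without wild-type replicate 4, with smaller differences for each, such as -5.43 for Anxa8 and -2.68 for Sprr1a. Single ex/ex libraries ended the calls of Dsc3 (replicate 1, 2 or 5, adjusted p up to 0.0662), Sprr1a (any of the 6, up to 0.091) and Serpinb5 (replicate 1, 2, 3 or 5, up to 0.0803). None of the 6 was called without both male-looking libraries or without both duodenal libraries. Sprr family members are similar in sequence, so reads may have been lost or split among them.

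Of 8 tested gastric and Brunner gland genes 1 fell, where 0.379% of all tested genes did, and 0 rose. The list median was 5.12 with 6 of the 8 positive, and 4.10 over 10 tested without wild-type replicate 4, beside the high values of ex/ex replicate 4. The member that fell, Gkn1, a protein of gastric surface mucus cells, was at 18.8, 8.73 and 152 CPM in wild type and at most 0.604 in ex/ex (-7.89 ± 0.97, adjusted p = 0.00818; -6.02 and 0.00802 without wild-type replicate 4). Gkn3, another gastric gene, at 12.7, 13.5 and 95.8 CPM in wild type, was at 5.81 to 28.4 in 5 ex/ex libraries and at 18131 in ex/ex replicate 4. The library richest in gastric genes thus held Gkn1 at only 0.401 CPM. Lipf, gastric lipase, was at 8.82, 13.4 and 11.5 CPM in wild type, with no high value in replicate 4, while 5 of 6 ex/ex libraries were at 0 and the group held 2 counts against 309 (adjusted p = 0.000789). Gpx5 and Gpx6, neighbouring glutathione peroxidase genes known from epididymis and olfactory tissue, were at 16.6, 25.3 and 204 and at 4.86, 14.7 and 231.6 CPM against at most 0.568 in ex/ex (-8.65 ± 0.90 and -8.16 ± 1.16, adjusted p = 0.00446 and 0.0179). A2m, a protease inhibitor of plasma, was at 15.2, 11.4 and 149 CPM against 0 to 0.112 in 5 ex/ex libraries and 1.51 in replicate 3 (-7.72 ± 1.09, adjusted p = 0.0179). Stra6, a receptor for retinol-binding protein, was at 3.15, 5.70 and 37.2 against at most 0.453 CPM (-5.96 ± 0.78, adjusted p = 0.0125). Single ex/ex libraries raised the adjusted p of Gpx6 (replicate 1, 2, 3 or 5) to up to 0.0647 and of A2m (replicate 1, 2 or 5) to up to 0.0662, while Gkn1, Lipf, Gpx5 and Stra6 stayed called without any 1 library. Gkn1, Gpx5 and Stra6 were not called without both male-looking libraries or without both duodenal libraries, nor were Gkn1, Gpx5 and Lipf when the spread was shared with the tumours.

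Among the genes of mucosal defence, Duoxa2 fell. It encodes the maturation factor of the oxidase DUOX2, which makes hydrogen peroxide at the epithelial surface. It was at 6.12, 9.74 and 20.3 CPM in wild type and 0.558, 0.189, 0.906, 0.669, 0.270 and 1.39 CPM in ex/ex. No ex/ex library came near the lowest wild-type value (-4.12 ± 0.49, adjusted p = 0.00741; -3.70 and 0.0188 without wild-type replicate 4), and the call held without any 1 library but not without both male-looking or both duodenal libraries. Duox2 itself was at 19.8, 29.7 and 46.9 CPM in wild type and 1.80 to 3.88 in 5 ex/ex libraries, but at 22.9 in ex/ex replicate 6. With that overlap it was not called (-2.38 ± 0.73, adjusted p = 0.30).

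Of 6 tested neutrophil and mast cell genes 2 fell, both of them mast cell proteases, where 0.379% of all tested genes fell. Without wild-type replicate 4, 1 fell, where 0.308% of all tested genes did, and 2 of the 6 were positive. The summed list was at 55.9, 207 and 623 CPM in wild type and 30.9 to 62.0 in ex/ex, so that wild-type replicate 2 lay within the ex/ex range. Mcpt1, a protease of mucosal mast cells, was at 14, 109 and 329 CPM in wild type and 7.37, 7.57, 13.7, 4.55, 6.39 and 6.41 CPM in ex/ex. Wild-type replicate 2 was only just above ex/ex replicate 3. Mcpt1 (-4.18 ± 0.66, adjusted p = 0.0289) and Mcpt2 (-4.72 ± 0.67, adjusted p = 0.0179) were the members called. When wild-type replicate 4 was left out, Mcpt2 passed (-3.68, adjusted p = 0.043) and Mcpt1 did not (-3.13, 0.0804). Mcpt1 stayed called in 1 of the 9 refits, that without wild-type replicate 2, and Mcpt2 was lost without ex/ex replicate 1, 2 or 5 (adjusted p up to 0.0662). Other mast cell genes, Cpa3, Fcer1a, Tpsb2 and Cma1, were highest in wild-type replicate 4 and reached 15.2 CPM at most. In such bulk samples fewer cells of a type and less RNA per cell cannot be told apart.

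Of 7 tested red blood cell genes 0 were called over the 9 libraries, and 5 lay lower in ex/ex without overlap, where 2.67% of all tested genes did. Hbb-bt, an adult beta globin, was at 6.12, 6.52 and 181 CPM in wild type and 1.34, 1.23, 2.57, 2.41, 1.26 and 1.18 CPM in ex/ex. It was called only without the blood-rich replicate 4 (-2.03 ± 0.31, adjusted p = 0.0345; with it -5.10 ± 0.93 and 0.0528). Globin genes are near-identical in pairs, so their split is uncertain. Endothelial genes turned with that library: over 9 libraries the median of 15 tested genes was -0.98 with 0 called. Without replicate 4 it was 0.50 with 1 called, where 0.408% of all tested genes were. That gene was Tie1, an endothelial receptor, at 7.92, 6.25 and 64.7 CPM in wild type and 14.8 to 20.4 in ex/ex, which was 1.22 ± 0.16 higher without replicate 4 (adjusted p = 0.0207) and -0.41 ± 0.56 with it (adjusted p = 0.849). Jaml, an adhesion molecule of intraepithelial lymphocytes, and Fbln5, an elastic fibre protein, had the same pattern (1.26 and 0.83 without replicate 4, adjusted p = 0.0161 and 0.0338; 0.28 and -0.37 with it).

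Of 17 tested cholesterol synthesis genes 1 was called, where 0.51% of all tested genes were. A negative fold change was found for 16, and an unadjusted p under 0.05 for 13, where 9.52% of all tested genes had one. The median was -0.79 with wild-type replicate 4 and -0.67 without it, when none was called. The called gene was Fdft1, squalene synthase, at 44.2, 48.2 and 80.6 CPM in wild type and 24.2 to 40.5 in ex/ex (-0.93 ± 0.16, adjusted p = 0.0475), and its call ended in 8 of the 9 refits without 1 library, with an adjusted p of up to 0.143 without wild-type replicate 4. Sqle, the next enzyme, was at 51.3, 48.0 and 93.0 against 16.2 to 41.6 CPM (-1.21 ± 0.25, adjusted p = 0.095). Of 18 tested clock genes 0 were called; 3 lay higher and 5 lower in ex/ex without overlap, where 2.68% and 2.67% of all tested genes did. Arntl, the activator of the clock, was at 16.9 to 19.1 CPM in wild type and 28 to 51.6 in ex/ex (1.03 ± 0.22, adjusted p = 0.11), and Dbp, one of its output genes, at 56.3 to 60.9 against 4.38 to 37.5 CPM (-1.45 ± 0.54, adjusted p = 0.44). The hour at which tissue was taken is not in the labels.

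**Figure D4:**
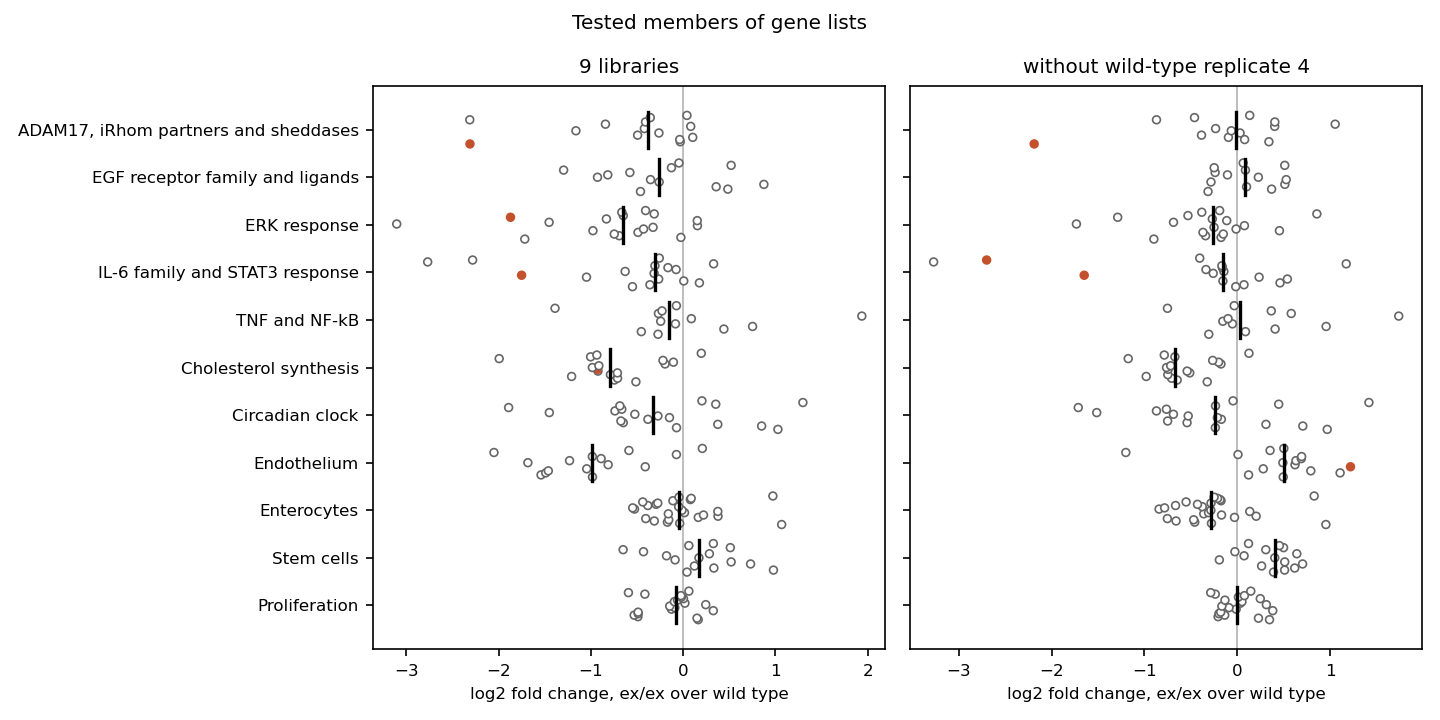
Log2 fold change of ex/ex over wild type (horizontal) of each tested member of 11 gene lists (rows), with 9 libraries (left) and without wild-type replicate 4 (right). Filled points passed the adjusted p threshold of 0.05 and black bars are list medians; the endothelial median is -0.98 on the left and 0.50 on the right, and the cholesterol synthesis median is -0.79 and -0.67.

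The mature cell types of the epithelium held no called gene. Of the tested enterocyte (25), goblet (13), Paneth (14), enteroendocrine (15), tuft (9) and stem cell (15) genes 0 passed in either direction in either fit. Their medians were between -0.05 (enterocytes) and 0.40 (goblet cells) with wild-type replicate 4, and between -0.28 (enterocytes) and 0.40 (stem cells) without it. Proliferation genes (20 tested, median -0.08) and Wnt target genes (21 tested, median -0.43) held 0 calls as well. The stem cell marker Lgr5 was at 10.1 to 26.6 CPM in wild type and 11.1 to 28.8 in ex/ex (0.04 ± 0.31, adjusted p = 0.98). Of the 18 tested duodenal and jejunal genes 0 were called, although Akp3, a duodenal alkaline phosphatase, ranged from 13.7 to 9650 CPM within ex/ex.

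The genes that were higher in ex/ex were fewer, and wild-type replicate 4 was over 2 times each other wild-type library in 0 of the 19. Tmem252, a membrane protein without a well-known role, was at 9.54, 8.82 and 8.64 CPM in wild type and 31.8, 34.2, 75.1, 63.4, 61.5 and 43.6 CPM in ex/ex. All 6 ex/ex values were over 3 times the highest wild-type value, and Tmem252 was 5.69-fold higher (log2 2.51 ± 0.30, adjusted p = 0.00776; 2.40 and 0.0318 without wild-type replicate 4). Tmem116 was at 3.87, 2.94 and 3.88 CPM against 11.5 to 17.7 (1.95 ± 0.21, adjusted p = 0.00521). Tmem8 was at 67.3, 56.9 and 79.0 CPM against 146 to 175 (1.29 ± 0.10, adjusted p = 0.000789). Decr2, a peroxisomal reductase used in the breakdown of unsaturated fatty acids, was at 33.1, 29.5 and 31.6 CPM against 62.5 to 87.5 (1.25 ± 0.13, adjusted p = 0.00474). These 4 held without any 1 library, wild-type replicate 4 included. With the spread shared with the tumours only Tmem252 of the 4 was called, Tmem116 and Decr2 were also lost without both male-looking libraries, and Decr2 with the shallow wild-type library. Hyi, a sugar isomerase, was at 13.4, 13 and 9.88 CPM against 25.5 to 34.4 (1.2 ± 0.18, adjusted p = 0.0214), but ended without ex/ex replicate 1, 2, 3 or 5, with an adjusted p of up to 0.0662.

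Further genes rose over the 9 libraries and missed the threshold without wild-type replicate 4. Ppard, a nuclear receptor for fatty acids, was at 86.6, 74.8 and 79.0 CPM against 118 to 173 (0.82 ± 0.13, adjusted p = 0.0328; 0.72 and 0.11). Hagh, a glyoxalase that clears methylglyoxal, was at 49.8, 49.4 and 50.1 CPM against 78.3 to 103 (0.85 ± 0.12, adjusted p = 0.0183; 0.76 and 0.0611). Fermt1, or kindlin-1, which activates integrins in epithelium, was at 47.1, 44.7 and 57.0 against 67.0 to 83.0 CPM (0.60 ± 0.09, adjusted p = 0.0262; 0.60 and 0.0595). The wild-type libraries, replicate 4 included, lay close together for all 3. Ppard was called only in the refit without ex/ex replicate 6, Hagh in 4 of the 9 and Fermt1 in 3.

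Tmem8, Decr2, Hagh and Ppard are all on chromosome 17, as are the lower genes Msln, Prss41 and Tnfrsf12a. In the window from 23000000 to 29000000 of that chromosome, which was chosen after these values were seen, 7 of 142 tested genes were called (4.93%), 4 higher and 3 lower, with a median log2 fold change of 0.11. Of all tested genes 0.51% were called, and of those on chromosome 17 as a whole 9 of 716 (1.26%). The window was drawn around called genes, so its share is high by choice. Prss41, a serine protease gene, was at 4.59, 3.58 and 3.53 CPM in wild type and 0.0946 to 0.558 in ex/ex (-3.64 ± 0.39, adjusted p = 0.00474; -3.78 and 0.00789 without wild-type replicate 4). Tnfrsf12a, the receptor for TWEAK, was at 12.8, 13.5 and 43.2 against 5.03 to 6.82 CPM (-1.82 ± 0.30, adjusted p = 0.0358; -1.2 and 0.0329), and its call ended without any 1 ex/ex library (adjusted p up to 0.107).

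Several gene copies were found in 1 genotype and not, or hardly, in the other. Of the 19 higher genes 6 and of the 55 lower genes 3 had a pseudogene biotype. Among the 6 were Hyi and the antigen receptor segment Ighv1-83, which had counts in all 3 wild-type libraries and are not such copies. The share of pseudogenes among all tested genes was not counted. Gm6472, on the X chromosome, held 1 count in the 3 wild-type libraries and 41.8 to 73.9 CPM in ex/ex (edgeR adjusted p = 8.07e-06). Gm7809 and Ywhaq-ps1 were at 0 in all 3 wild-type libraries and held 131 and 116 counts over the 6 ex/ex libraries. In the other direction, Atp6v0c-ps2 was at 11, 10.4 and 4.06 CPM in wild type and at 0 in all ex/ex, and Hmga1b, a copy of Hmga1, was at 3.42, 3.31 and 3 CPM against at most 0.189. The tumours of the same genotypes had the same pattern, with medians of 0.0536 CPM (wild type) and 68.1 CPM (ex/ex) for Gm6472 and of 5.65 and 0 CPM for Atp6v0c-ps2. Such copies share reads with their parent genes and only uniquely aligned reads were counted, so their levels are uncertain. The calls of Atp6v0c-ps2, Gm7809 and Ywhaq-ps1 held in 3, 2 and 7 of the 9 refits without 1 library.

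Most genes that were lower in ex/ex non-tumour tissue were also lower in ex/ex tumours. Ex/ex and wild-type tumours differed in 5790 of 16570 tested genes (34.9%). Of the 55 genes lower in non-tumour tissue, 52 were also lower in ex/ex tumours, where 18.8% of all genes were, and of the 19 higher ones 10 were also higher, where 16.1% were. In 42 of the 55 the median of the wild-type tumours was above wild-type non-tumour replicates 2 and 3, as in 8 of the 19 higher genes. Wild-type replicate 4 lay within the range of the wild-type tumours in 43 of the 55 and in 18 of the 19, so this does not mark the lower genes. The shares of all tested genes were not counted. Krt7 had a median of 598 CPM in wild-type and 63.0 in ex/ex tumours, and Mcpt1 of 285 and 7.86. Notum, a Wnt inhibitor that Apc-mutant cells are known to make, was at 1.53, 7.90 and 22.1 CPM in wild-type replicates 2, 3 and 4, and 0.18 to 4.42 in ex/ex, against a median of 49.9 in wild-type tumours. The part of tumour cells in the non-tumour pieces was not tested.

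The difference of the genotype effect between the tissues was tested over 38 libraries and was called for 6 genes (0.0362%), all with the larger drop in non-tumour tissue. Of these, A2m, Stra6, Dsc3 and Msln are among the 55. Stra6 was near 0 in ex/ex non-tumour tissue, with a median of 41.0 CPM in ex/ex tumours and 53.9 in wild-type tumours (interaction -5.63 ± 0.82, adjusted p = 0.00035). A2m had tumour medians of 5.30 and 8.83 CPM (-7.01 ± 0.92, adjusted p = 7.40e-05). The interaction gave 1 call when wild-type replicate 4 was left out. Socs3 and Adam17 also fell less in tumours, by 0.66 and 1.21 on the log2 scale against 1.75 and 2.31, but the interaction did not pass (-1.07 with an adjusted p of 0.053, and -1.08 with 0.096). The range in ex/ex tumours was 15.6 to 46.4 CPM for Socs3 and 10.4 to 42.4 for Adam17.

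**Figure D5:**
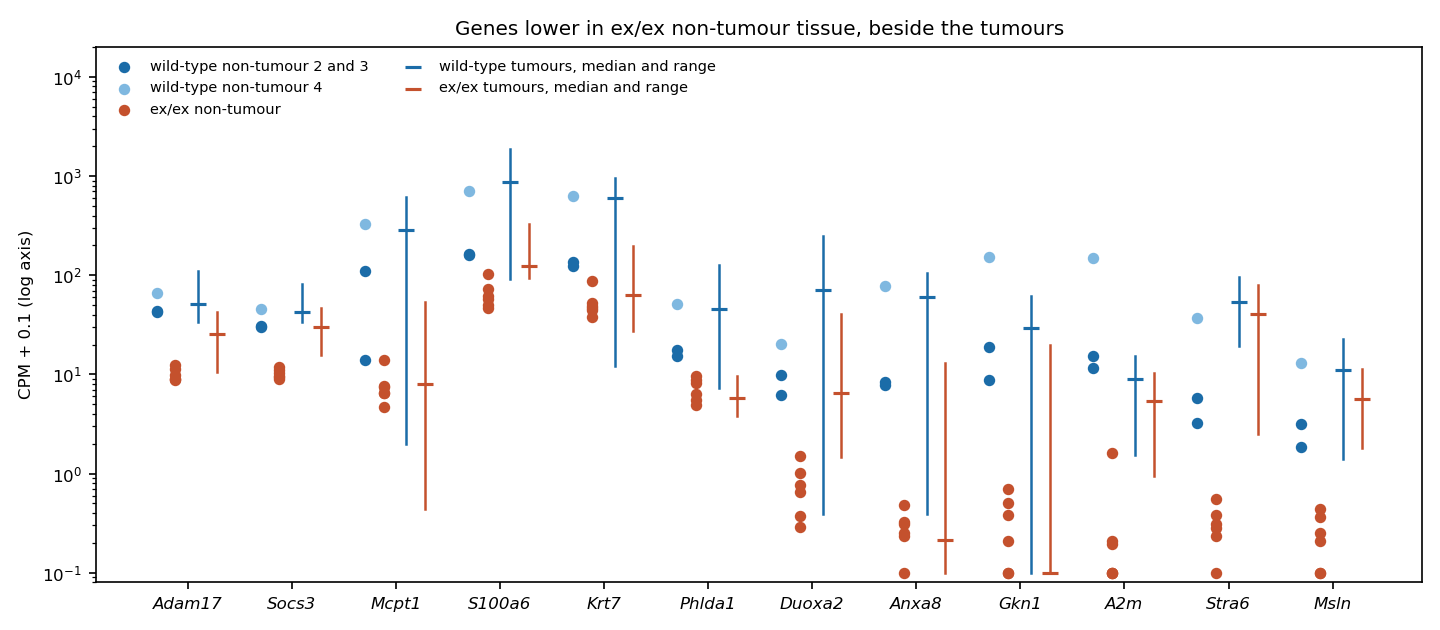
CPM plus a small offset (vertical, log axis) of 12 genes (horizontal) in wild-type and ex/ex non-tumour libraries (points) and in wild-type and ex/ex tumours (lines span the range, ticks mark the median). Stra6 is near 0 in ex/ex non-tumour tissue and at a median of 41.0 in ex/ex tumours, while Mcpt1, S100a6 and Krt7 are lower in ex/ex in both tissues.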

How the data were processed

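RNA was extracted with RNeasy kits and sequenced from TruSeq stranded mRNA libraries, per the labels' protocols. Trimmomatic 0.36, TopHat2 2.0.14, HTSeq and the build GRCm38 are named in the submitters' processing notes; no source used here states the HTSeq version, strand setting or annotation. The deposited values are whole-number read counts per Ensembl gene for each library, which the authors did not normalize. HTSeq's summary lines did not enter the library totals: non-unique alignments were 29.1 to 34.0%, reads in no feature 3.00 to 4.69% and ambiguous reads 0.666 to 0.807%. Of 49585 gene IDs, 259 found no match in the GENCODE M21 annotation, which gave symbols and positions.

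Genes were filtered by edgeR's default rule, scaled by TMM and tested with edgeR 4.0.16 (R 4.3.3) by quasi-likelihood, and p-values were adjusted over all tested genes by Benjamini-Hochberg. Only the non-tumour libraries entered this fit; the tumour contrast and the interaction came from 1 fit of 38 libraries. The code was tested on simulated counts. CPM are plain counts over the library's gene total, scaled to 1000000. DESeq2 1.42.0 and the other alternatives are given under the processing section. The labels name no animals and replicates were numbered in accession order, so that a p-value reflects only how far these libraries vary, which may in part be technical.

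The comparison and the gene lists were chosen with earlier results of these data known. Named genes were the tested members of the ADAM17, EGF receptor, IL-6 and TNF lists, up to 15 of the largest and 15 of the smallest fold changes called in both fits (5 were left among the largest and 15 among the smallest, since an average log2 CPM of at least 1 was asked for and genes with systematic names, antigen receptor segments, Y-linked genes and Xist were passed over), and up to 4 members of each other list with the smallest p. Other genes named, among them Lamb3, Itgb6, Tns4, Plek2, Sprr2a3, Serpinb5, Prss41, Tnfrsf12a, Ppard, Hagh, Fermt1, Tie1, Jaml, Fbln5, Iah1, Clu, Dbp, Lgr5 and the gene copies, were chosen after their values were seen.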

Additional observations from a re-analysis of the deposited data

Results flagged for a closer look

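Among 199 named genes with enough signal, single ex/ex libraries stood apart from the other 5 by more than Dixon's 95% limit for groups of 6, which chance passes in about 1 of 20 groups. Values are CPM, each followed by the range of the other 5 ex/ex libraries.

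Ex/ex replicate 3 stood apart for Hyi at 34.4 (25.5 to 28), A2m at 1.51 (0 to 0.112) and Frmd8 at 153 (110.4 to 126). It further held Cdca7 at 106 (47.7 to 63.3), Mcm2 at 35.0 (19.4 to 25.1) and Rrm2 at 31.4 (13.5 to 19.7). Also apart were Mcm3 at 40.0 (22.5 to 28.4), Avil at 29.6 (12.2 to 15.3) and Dclk1 at 37.5 (16.5 to 22.5). The last was Mcpt1 at 13.7 (4.55 to 7.57).

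Ex/ex replicate 4 stood apart for Adam28 at 23.7 (0.112 to 0.604), Furin at 269 (96.5 to 131) and Il11ra1 at 13.2 (4.77 to 7.86). It further held Icam1 at 15.9 (5.49 to 8.76), Tff2 at 35202 (0.112 to 21.8) and Pgc at 589 (0.321 to 5.14). Also apart were Agr2 at 2740 (290.5 to 918), Creb3l1 at 305 (12.1 to 41.3) and C1qb, which was low, at 36.9 (42.3 to 44.0). The last was Notum at 4.42 (0.18 to 1.32).

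Ex/ex replicate 5 stood apart for Pdk4 at 595 (155 to 297).

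Ex/ex replicate 6 stood apart for Tgfa at 39.5 (30.9 to 33.1), Btc at 10.2 (7.10 to 8.04) and Il6ra at 18.6 (6.15 to 9.54). It further held Osmr at 13.7 (8.16 to 9.46), Nfkb2 at 34.2 (20.3 to 25.1) and Fabp6 at 102 (1.96 to 5.68). Also apart were Pyy at 14.2 (0.36 to 5.29), Clca1 at 5180 (1637 to 2495) and Krt7 at 86.8 (38.3 to 52.5). Also apart were Cyp51 at 61.9 (31.2 to 42.3), Chac1 at 7.27 (0.558 to 2.97) and Duox2 at 22.9 (1.80 to 3.88). Also apart were Prox1 at 8.45 (2.14 to 4.23), Col1a1 at 93.0 (34.7 to 52.4) and Pdgfra at 97.3 (34.9 to 47.4). The last was Ccnd1 at 79.1 (38.8 to 50.2).

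The genotype difference was tested for a change between non-tumour tissue and tumours, and 6 genes passed (edgeR, interaction term). Sema4f had an interaction of -3.41 ± 0.63 on the log2 scale (adjusted p = 0.0199) and a log2 fold change of -0.25 in tumours. Aldh3a1 had an interaction of -4.90 ± 0.98 on the log2 scale (adjusted p = 0.0374) and a log2 fold change of 0.51 in tumours. A2m had an interaction of -7.01 ± 0.92 on the log2 scale (adjusted p = 7.4e-05) and a log2 fold change of -0.68 in tumours. Stra6 had an interaction of -5.63 ± 0.82 on the log2 scale (adjusted p = 0.00035) and a log2 fold change of -0.33 in tumours. Dsc3 had an interaction of -4.66 ± 0.89 on the log2 scale (adjusted p = 0.0216) and a log2 fold change of -1.49 in tumours. Msln had an interaction of -4.23 ± 0.79 on the log2 scale (adjusted p = 0.0207) and a log2 fold change of -0.96 in tumours. Each rests on 3 wild-type non-tumour libraries, of which replicate 4 was the highest for A2m, Stra6, Dsc3 and Msln, and 1 gene passed without that library.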

How the results depend on the processing

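The number of calls depended on the tool and on single libraries. The direction of the 74 called genes held in every refit in which they were tested. That was largely fixed beforehand, since the ex/ex and wild-type values of each called gene did not overlap. With all 9 libraries, 19 higher and 55 lower genes became 110 and 211 with DESeq2, 47 and 122 when the spread was shared with the tumours, and 11 and 14 with the shallow wild-type library. They became 3 and 6 without the male-looking libraries, 10 and 12 without ex/ex replicates 3 and 4, and 7 and 23 with ex/ex replicates 1 and 2 summed; the last 2 settings were chosen after seeing the data, the pair for its close agreement. Lower genes were 91 with no filter on low counts. Leaving out 1 library gave 7 to 27 higher and 21 to 66 lower genes. Without wild-type replicate 4, 15 higher and 46 lower genes became 77 and 120 with DESeq2, 3 and 10 without the male-looking libraries, 30 and 87 without ex/ex replicates 3 and 4, and 9 and 27 with the pair summed; lower genes were 19 with the shared spread, and leaving out 1 more library gave 1 to 36 and 0 to 63. The 0 higher and 6 lower interaction calls (1884 genes at an unadjusted p under 0.05) were 62 and 21 with DESeq2, and 1 lower without wild-type replicate 4.

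Of 214 named genes 29 were called. This was 48 with DESeq2, 6 without the male-looking libraries, 7 without ex/ex replicates 3 and 4, 16 with the pair summed, 11 with the shallow library and 14 to 32 without 1 library. Leaving out wild-type replicate 4, the 26 called named genes were 43 with DESeq2, 9 with the shared spread, 7 without the male-looking libraries and 0 to 32 without 1 more library. Of 547 tested list members 11 were called, against 38 with DESeq2, 21 with no filter, 21 with the shared spread, 2 without the male-looking libraries, 2 without ex/ex replicates 3 and 4, 5 with the pair summed, 6 with the shallow library and 4 to 17 without 1 library. Without wild-type replicate 4 the 10 called members were 30 with DESeq2, 4 with the shared spread, 2 without the male-looking libraries, 6 with the pair summed and 0 to 17 without 1 more library. Adam28 turned from 1.06 to -3.16 (log2) without wild-type replicate 4 when ex/ex replicates 3 and 4 were also left out. The cause of these changes was not tested. No paired analysis was possible because the labels give no replicate numbers. The number of wild-type libraries, 3 or 2, limits the precision of each value.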
